A study of Canis lupus familiaris with 2 samples.

Results

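Horizontal cells of the normal canine neuroretina were taken from single-cell RNA-seq libraries of 2 dogs, named N350 and N354. A cell was counted as a horizontal cell when it held at least 1 UMI (unique molecular identifier, a tag that marks each captured transcript) of at least 2 of ONECUT1, ONECUT2, LHX1 and CALB1, with ONECUT1 or LHX1 among them, and 0 UMIs of RBPMS, SLC17A6, TRPM1 and SLC6A9. The cells were thus chosen by their own UMIs of these 8 genes. The rule took 156 of the 13282 cells with 200 or more detected genes, 135 of 8895 in N350 and 21 of 4387 in N354. Both dogs were males of 40 weeks with a normal or wild-type genotype, and neither was treated. Each dog gave 1 library, made by 3′ chemistry from neuroretinal punches that were digested with trypsin and a neural dissociation kit. The site of the punches is not given in the sources used here. N350 held 24030707 UMIs in 8900 barcodes and N354 held 9711202 UMIs in 4392 barcodes, and 6 barcodes occurred in both, none of them a horizontal cell. The 2 tables were counted on different gene annotations, with 34981 features in N350 and 19947 in N354, and 15224 gene names were shared. Dog and annotation therefore cannot be told apart, and every test below was made between cell classes within a dog. Differences between the dogs are given as values with no test.

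Horizontal cells are the interneurons of the outer retina. Their dendrites enter the synaptic terminals of rods and cones, receive glutamate there, and send inhibitory feedback to the photoreceptors, which sharpens contrast between neighbouring regions of the image. They are joined to each other by gap junctions into a wide network, and their fate is set in development by transcription factors of the ONECUT, LIM-homeobox and PROX families.

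Horizontal cells made up 1.52% of the cells of N350 (exact binomial 95% interval 1.27 to 1.79%) and 0.479% of those of N354 (0.297 to 0.731%). Intervals in this text cover counting error only. The 135 cells of N350 held from 531 to 27012 UMIs with a median of 9463, and their median number of detected genes was 3591. The 21 cells of N354 held from 630 to 26671 UMIs with a median of 9954 and a median of 3035 genes. All cells with 200 or more genes had medians of 1298 and 1204 UMIs, so the horizontal cells contributed 5.49% and 2.13% of the UMIs of those cells. A rule that asks for 2 detected markers takes deep cells more readily than shallow ones, and these depths are given as a description. The median share of UMIs on 13 mitochondrial genes was 8.55% in N350 and 11.8% in N354, against 6.15% and 7.46% in the cells outside every gate. With at most 5% on those 13 genes, 16 horizontal cells were left in N350 and 0 in N354. The rule sets no mitochondrial limit, and none was applied.

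The markers of the rule chose the cells, so their values carry no test. ONECUT1 stood at 11.2 UMIs per 10000 UMIs in N350 and 11.7 in N354, and CALB1, the calcium buffer calbindin, at 70.6 and 71.5. The transcription factor LHX1 reached 1.03 and 2.18. ONECUT2 stood at 15.9 in N350 and 1.5 in N354, a difference of 10.6-fold between the dogs, while the other markers stayed closer. All 4 markers were found together in 56 cells of N350 and 10 of N354, and ONECUT1 with CALB1 alone admitted 29 and 5.

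Cells of N350 just inside the threshold differed from the rest of the group in genes that the rule did not use. The 33 cells of N350 with 2 markers had a median of 2829 UMIs and the 56 with 4 markers a median of 15520. IGFBP2, which binds insulin-like growth factors, had a level of 3.37 UMIs per 10000 in the former and 27.2 in the latter, with 18.9 in the 46 cells with 3 markers. SAG, the rod arrestin, ran the other way at 17.7, 4.83 and 1.59. In N354 the 5 cells with 2 markers had IGFBP2 at 23.1 and SAG at 42.9, and the 10 cells with 4 markers had 39.6 and 0.587. Both values of the 5 cells turned on 1 cell of 5105 UMIs, with IGFBP2 at 0 and SAG at 76.4. The others of the 5 had SAG at 0 and IGFBP2 from 15.8 to 116. Just outside the threshold in N350, 21 cells with ONECUT1 or LHX1 alone had IGFBP2 at 0, 618 cells with ONECUT2 or CALB1 alone had 0.981, and 50 cells with ONECUT2 and CALB1 but neither of the other markers had 10.1. A further 46 cells of N350 and 4 of N354 met the markers and held a barred gene, in most of them SLC6A9, and their IGFBP2 levels were 2.24 and 2.12. The plot of IGFBP2 against depth shows the same cells one by one.

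**Figure D1:**
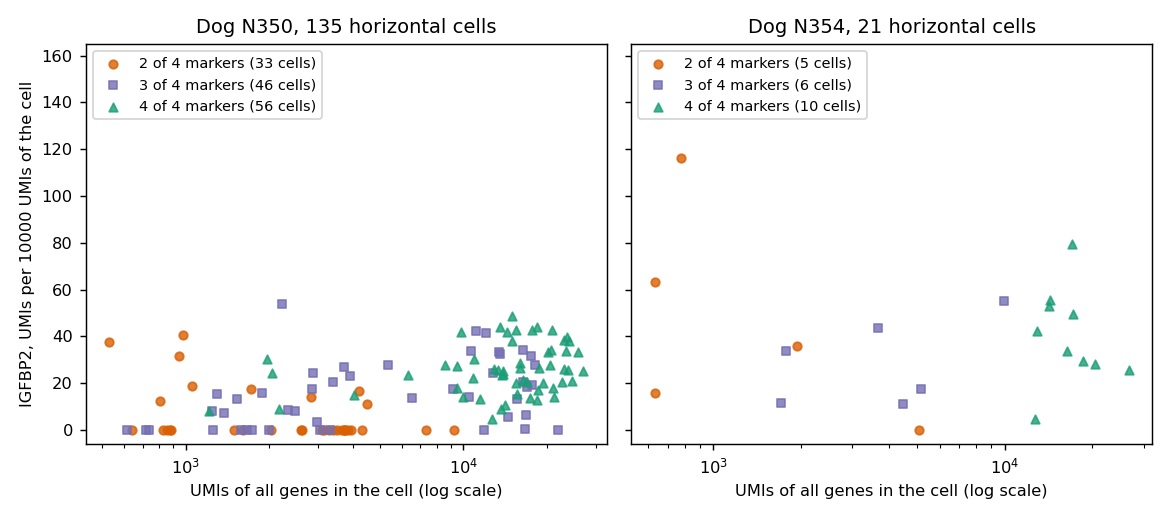
IGFBP2 in each horizontal cell (vertical axis, UMIs per 10000 UMIs of that cell) against the total UMIs of the cell (horizontal axis, log scale), for N350 on the left and N354 on the right. Each point is 1 cell and its shape gives how many of the 4 markers it held. In N350 36 of the 135 cells lie at 0, 24 of them cells with 2 markers, and in N354 1 of 21 does.

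IGFBP2 and the connexin GJA9 were found together in 83 of the 135 cells of N350 and in 16 of the 21 of N354, and neither was found in 31 and 1. The 36 cells of N350 without IGFBP2 had a median of 2831 UMIs and a SAG level of 15.2. SAG was found in 24 of the 36 and not in the other 12. Not all of the 36 were shallow. A cell of 7328 UMIs with 2 markers had SEPTIN4 and GJA9 at 0, while a cell of 21862 UMIs with 3 markers had them at 22.9 and 5.95. Whether the 36 are horizontal cells or cells of another type was not tested. CALB1 was detected in 97.8% and 100% of the cells of the group. Outside the rule, SEPTIN4 was detected in 80.2% and 89.9% of horizontal cells and 12.8% and 9.77% of remaining cells after each cell was thinned to 1000 UMIs, and GJA9 in 26.1% and 32.4% against 0.295% and 0.121%. The thinning left out 12 and 3 shallower horizontal cells.

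The comparators were set within each dog. A GABAergic amacrine gate (GAD1 or GAD2 with at least 1 further amacrine marker such as C1QL2) held 138 and 39 cells, an ON bipolar gate (TRPM1 with GRM6, CABP5 or PRKCA) held 292 and 254, and 8321 and 4073 remaining cells fell in no gate. The amacrine gate barred cells with any UMI of ONECUT1, ONECUT2, LHX1, TRPM1, SLC17A6, RBPMS or SLC6A9. The bipolar gate barred cells with any UMI of ONECUT1, LHX1, RBPMS, SLC17A6, GAD1 or GAD2. A barred cell that met no other gate was counted among the remaining cells. Of the amacrine gate the median depth was 8385.5 UMIs in N350 and 6641 in N354, the nearest to the horizontal cells, while the bipolar gate had 2542 and 2560 and the remaining cells 1228 and 1145. UMIs were summed per dog and class, and the 8 sums were tested in a single edgeR quasi-likelihood fit with the dog as a block, which gives Benjamini-Hochberg adjusted p-values over all genes. A gene is called higher or lower below at an adjusted p under 0.05. The 2 dogs are the replicates.

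Over the remaining cells 1499 of 12339 genes were higher in horizontal cells, which is 12.1%, and 2472 were lower, which is 20%. Against the amacrine gate 820 of 12335 genes were higher (6.65%) and 1297 lower (10.5%), and against the ON bipolar gate 1387 of 12334 were higher (11.2%) and 1610 lower (13.1%). Without the dog as a block the same tests called 193 genes, 0 and 206, and 1328 genes had an unadjusted p under 0.05 in the comparison with the amacrine gate, where DESeq2 with the block called 1401. The median log2 fold change of all genes was -0.33 over the remaining cells, -0.06 over the amacrine gate and -0.14 over the bipolar gate. Of the genes with 10 or more UMIs in the horizontal cells of each dog, 891 of 893 called higher over the remaining cells had a ratio above 1 in each dog by itself, and 315 of 318 called lower had a ratio below 1 in each. The calls used both dogs, so this is a description of their spread.

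**Figure D2:**
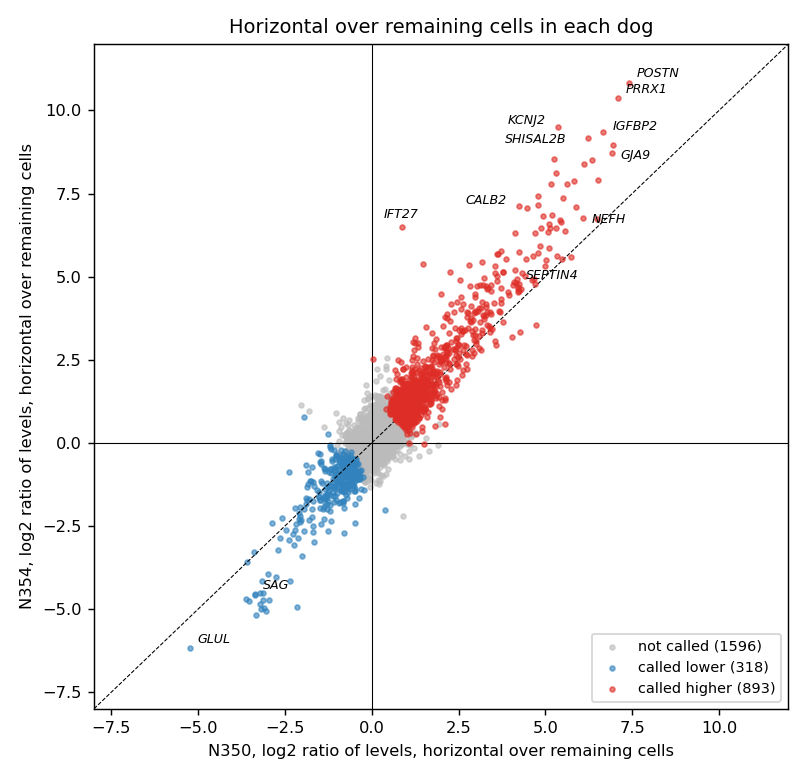
Log2 ratio of the level in horizontal cells to that in remaining cells, N350 on the horizontal and N354 on the vertical axis, for genes with 10 or more UMIs in the horizontal cells of each dog. Red points are genes called higher (893), blue points called lower (318) and grey points not called (1596). POSTN, PRRX1, IGFBP2 and GJA9 lie at the upper right, GLUL and SAG at the lower left, and IFT27 lies far from the dashed line of equal ratios.

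The 20 genes that led the comparison with remaining cells had log2 fold changes from 5.75 to 8.0 with standard errors from 0.29 to 0.68 (edgeR adjusted p at most 4.31e-08), and 8 of the 20 were called without the block. A standard error (SE) in this text is the absolute log2 fold change divided by the square root of the F statistic of the edgeR test. It does not measure the spread between the 2 dogs. IGFBP2 was the most abundant of them, with 23.3 UMIs per 10000 in the horizontal cells of N350 and 38.2 in those of N354, against 0.228 and 0.0586 in the remaining cells (log2 fold change 7.81, SE 0.45). As counted, IGFBP2 was detected in 73.3% and 95.2% of horizontal cells, and after thinning to 1000 UMIs in 66.8% and 86.3% of horizontal cells and in 1.66% and 0.322% of remaining cells. POSTN, the matrix protein periostin, had levels of 4.73 and 4.27 against 0.0277 and 0.00235, and the homeobox gene PRRX1 had 1.45 and 4.66 against 0.0106 and 0.00352 (log2 fold change 8.0 for each). In N350 and N354 by themselves the ratio was 171 and 1820 for POSTN and 137 and 1323 for PRRX1. The remaining cells of N354 held 2 UMIs of POSTN and 3 of PRRX1. For these genes the horizontal cells of either dog lay above the remaining cells of both.

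The rest of the leading 20 fell into a few kinds. SHISAL2B had levels of 8.32 and 10.8, and PPP1R1C, an inhibitory subunit of protein phosphatase 1, had 5.45 and 4.70. The metabolic enzyme ALDH3A1, an aldehyde dehydrogenase, had 5.59 and 5.96 UMIs per 10000 against 0.122 and 0.0364 in the remaining cells. TNR, the matrix protein tenascin-R, had 2.78 and 1.70, and the bicarbonate transporter SLC4A5 had 2.57 and 1.26. RFX6, a transcription factor best known from the pancreatic islet, was low in absolute terms at 0.683 and 0.582, yet 0.00553 and 0.00117 in the remaining cells (log2 fold change 7.16, SE 0.57). Others of the 20 were GJA9, GJA10, KCNJ2, NEFH, SLC4A3 and MEGF11, described with their groups below, and DNAH14, NELL1, RIT2 and AJAP1.

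The 8 genes most lower than in remaining cells were OMG, APOLD1, FGG, GFRA1, LAMA4, CHRDL1, COL9A2 and CLRN1. Each had 0 UMIs in the horizontal cells of both dogs, a count that allows a level of up to 0.0228 in N350 and 0.145 in N354. OMG, a myelin-associated glycoprotein, stood at 0.861 and 0.373 in the remaining cells, and the laminin chain LAMA4 at 0.511 and 0.840. GFRA1, at 0.0985 in the remaining cells of N354, lay under the level that 0 UMIs allow there. None of the 8 was called without the block (adjusted p from 0.0508 to 0.209).

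**Figure D3:**
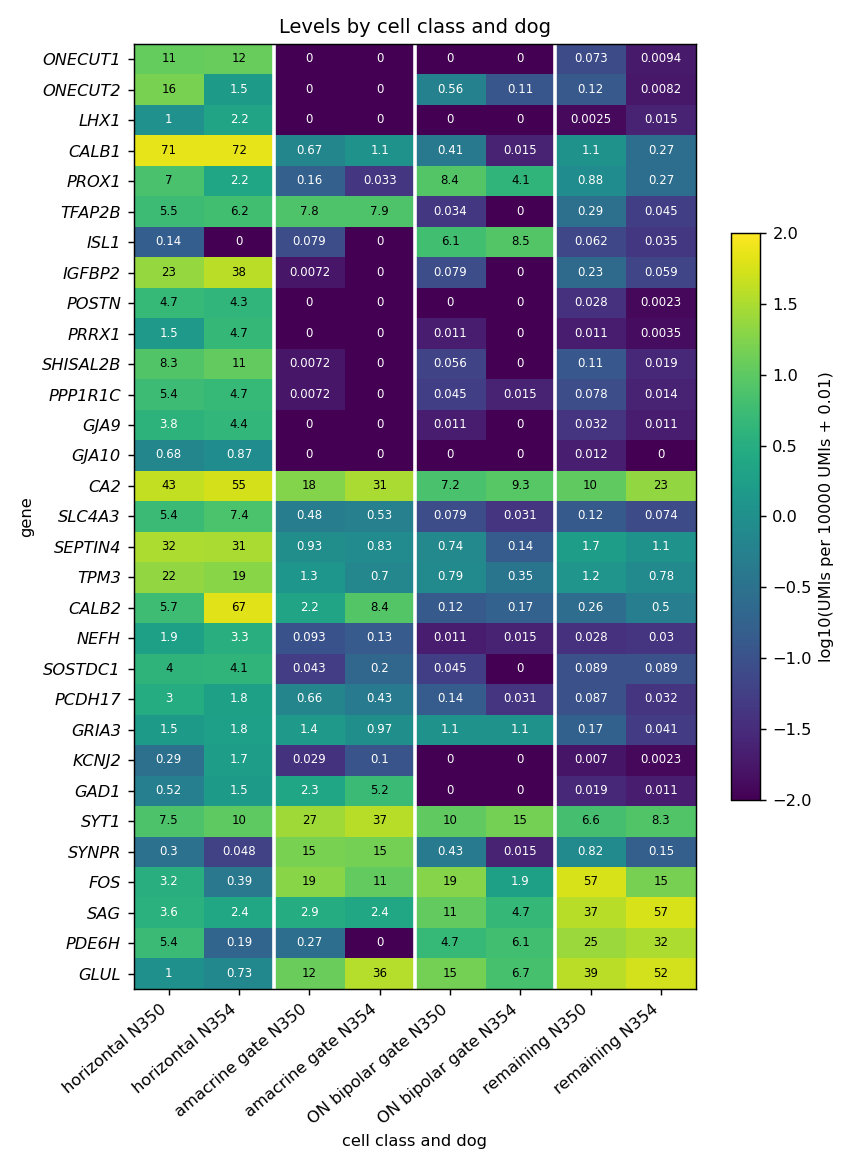
Levels of selected genes in the 4 cell classes of each dog. Rows are genes, columns are class and dog, the printed number is the level in UMIs per 10000 UMIs of the class, and the colour is its log10 after adding 0.01. The first 4 rows are the markers of the rule, and from IGFBP2 down to KCNJ2 most genes are brightest in the 2 horizontal columns.

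Among transcription factors of horizontal cells, 8 of the 14 listed genes could be tested, since ONECUT1, ONECUT2 and LHX1 belong to the rule and ONECUT3, PTF1A and PAX6 were not shared by the annotations. Over the remaining cells, where 12.1% of all genes were higher and 20% lower, 5 were higher, 1 was lower and 2 were not called. Their median log2 fold change was 1.76, and none was called without the block. TFAP2B, a factor of horizontal and amacrine cells, had 5.54 and 6.16 UMIs per 10000 against 0.291 and 0.0446 in the remaining cells and 0.0338 and 0 in the bipolar gate. In the amacrine gate it stood at 7.78 and 7.86, and the difference from horizontal cells was not called (log2 fold change -0.32, SE 0.36, edgeR adjusted p = 0.623). Its relative TFAP2A had 1.02 and 0.582, below the amacrine gate at 4.70 and 2.97 (log2 fold change -2.27, SE 0.36).

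PROX1, which marks horizontal, bipolar and some amacrine cells, ran the opposite way. Its level was 7.02 in N350 and 2.23 in N354, against 0.158 and 0.0333 in the amacrine gate (log2 fold change 5.59, SE 0.36), while the bipolar gate had 8.36 and 4.13 and did not differ by the test (adjusted p = 0.0787). The zinc finger factor SALL3 was higher than in all 3 comparators, from a low level of 0.463 and 0.0485. These calls rested on N350, since the level in N354 lies under the 0.145 that 0 UMIs allow there. LMO4, a LIM-only cofactor, stood at 3.98 and 0.485, above the remaining cells at 2.27 and 0.131 and below the bipolar gate at 8.0 and 0.645. The amacrine gate had 9.41 and 0.333, and that difference was not called (adjusted p = 0.104). The nuclear receptor NR2F2 had 3 UMIs in N350 and 0 in N354, and was called lower than in the remaining cells at 0.192 and 0.0551. This call was lost with DESeq2 and without the block (adjusted p = 0.318), and it rested on N350, since 0 UMIs allow a level of up to 0.145 in N354. ISL1, which separates subtypes of horizontal cells in other species and is abundant in ON bipolar cells, had 0.144 in N350 and 0 UMIs in N354, against 6.06 and 8.51 in the bipolar gate. PTF1A, needed in development for horizontal and amacrine fate, had 0 UMIs in N350 and is not among the names of N354.

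Calcium-binding proteins and the cytoskeleton gave 6 higher, 1 lower and 3 not called of 10 genes tested over the remaining cells, against 12.1% higher and 20% lower of all genes. The median log2 fold change was 3.94 against -0.33 for all genes. Without the block 5 of them were called higher. SEPTIN4, a filament-forming GTPase, had 32.4 and 30.6 UMIs per 10000 in horizontal cells. In the other classes SEPTIN4 ranged from 0.138 in the bipolar gate of N354 to 1.73 in the remaining cells of N350 (log2 fold change 4.38 over remaining cells, SE 0.31, and 5.35 over the amacrine gate, SE 0.34). TPM3, a tropomyosin, had 22.5 and 19.5 against at most 1.26 elsewhere (4.30 over remaining cells, SE 0.26). TMOD1, which caps actin filaments, had 1.78 and 1.60 against 0.0417 and 0.0152 in the remaining cells. The levels of SEPTIN4, TPM3 and TMOD1 were thus alike in the 2 dogs and above every comparator.

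The neurofilaments parted from each other. NEFH, the heavy chain, had 1.86 and 3.35 against 0.0277 and 0.0305 in the remaining cells and 0.0933 and 0.133 in the amacrine gate (log2 fold changes 6.24 and 4.58, SE 0.32 and 0.37). The medium chain NEFM had 1.29 and 2.52, above the remaining cells but below the bipolar gate at 3.56 and 6.07. The light chain NEFL had 0.114 and 0.0970, did not pass against the remaining cells (adjusted p = 0.19) and was lower than in the amacrine gate at 2.55 and 1.53 (log2 fold change -4.38, SE 0.58). The intermediate filament VIM had 12.6 and 13.9 against 82.5 and 130 in the remaining cells, which include Müller glia (log2 fold change -3.09, SE 0.39).

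CALB2, the calcium buffer calretinin, was higher in horizontal cells than in every comparator, yet at different levels in the dogs. N350 had 5.68 UMIs per 10000 and N354 had 66.9, and it was detected in 64.4% of the cells of N350 and 100% of those of N354. In the amacrine gate CALB2 stood at 2.19 and 8.36, and in the remaining cells at 0.257 and 0.500 (log2 fold change 2.49, SE 0.36, and 5.74, SE 0.41). After thinning to 1000 UMIs it was detected in 33.3% and 99.1% of horizontal cells and in 1.55% and 1.5% of remaining cells.

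Gap junction and feedback genes gave 7 higher, 3 lower and 5 not called of 15 over the remaining cells, against 12.1% higher and 20% lower of all genes, so the share lower was that of all genes. The median log2 fold change of the list was 0.02, and without the block 2 were called higher and 0 lower. The connexins GJA9 and GJA10, channel proteins that join neighbouring cells, were among the 7. GJA9 had 3.82 and 4.41 UMIs per 10000 against 0.0317 and 0.0106 in the remaining cells (log2 fold change 7.37, SE 0.35, edgeR adjusted p = 1.85e-14). The amacrine gate had 0 UMIs of GJA9 in both dogs, which makes horizontal cells at least 177-fold higher in N350 and at least 44.1-fold higher in N354. GJA10 had 0.676 and 0.873, with 0 UMIs in the amacrine and bipolar gates of both dogs. GJD2, GJC1, PANX1 and PANX2, the other connexins and pannexins listed, had at most 0.0970 UMIs per 10000 in horizontal cells and were not called over the remaining cells.

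Acid-base transporters and enzymes of the list differed in direction. CA2, the soluble carbonic anhydrase, had 42.6 and 55.1 UMIs per 10000, above the amacrine gate at 18.2 and 31.4 and the remaining cells at 10.5 and 22.65 (log2 fold changes 1.16 and 1.52, SE 0.23 for both). The anion exchanger SLC4A3, which trades chloride for bicarbonate, had 5.41 and 7.42 against 0.125 and 0.0739 in the remaining cells and 0.481 and 0.533 in the amacrine gate (5.85, SE 0.29, and 3.81, SE 0.30). CA14, a membrane-bound carbonic anhydrase, had 0.114 and 0 and was lower than in all 3 comparators.

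Of the cation-chloride cotransporters SLC12A7 was higher, at 1.72 and 0.145 against 0.0191 and 0 in the remaining cells (log2 fold change 6.5, SE 0.47). Its 0.145 in N354 is no higher than the level that 0 UMIs allow there. SLC12A5, the neuronal chloride exporter, had 0.592 and 0.194 against 2.04 and 1.0 in the amacrine gate, and was lower than in every comparator. SLC12A2, which imports chloride, had 0.0304 and 0.0970 and was lower than in the remaining cells and the amacrine gate. The sodium pump subunit ATP1B1 had 4.46 and 5.92, above the remaining and bipolar cells and not apart from the amacrine gate (adjusted p = 0.572).

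GABA genes gave 3 higher, 2 lower and 5 not called of 10 over the remaining cells, where 12.1% of all genes were higher and 20% lower. Without the block 1 was called higher and 0 lower. That gene was GAD1, whose call was partly set by the choice of cells, as given below. The median log2 fold change of the list was -0.22 against -0.33 for all genes. GAD1, the larger of the GABA-synthesizing enzymes, was detected in 37 of the 135 horizontal cells of N350 and 14 of the 21 of N354. After thinning to 1000 UMIs these shares were 4.01% and 17.7%, against 0.111% and 0.0849% of remaining cells. Its level was 0.516 and 1.5 UMIs per 10000 against 0.0186 and 0.0106 in the remaining cells (log2 fold change 5.49, SE 0.39), and 2.31 and 5.23 in the amacrine gate, for which GAD1 was a gate gene. Cells of that gate were left out of the remaining cells, so the choice of cells set part of the GAD1 difference from the remaining cells. GAD2, the other synthesizing enzyme, had 0 UMIs in the horizontal cells of both dogs, which allows up to 2.22% of the cells of N350 and 14.3% of those of N354 to hold a UMI at this depth and sets no limit on the cells that express it. The vesicular transporter SLC32A1, which loads GABA into vesicles, had 1.37 in N350 and 0 UMIs in N354, against 4.24 and 0.200 in the amacrine gate (log2 fold change -1.62, SE 0.35). In N354 0 UMIs allow a level of up to 0.145, close to that 0.200. Over the amacrine gate none of the 7 GABA genes tested was higher and 5 were lower, against 6.65% and 10.5% of all genes, and without the block 0 were called.

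Glutamate receptor genes gave 5 higher, 3 lower and 7 not called of 15 over the remaining cells, against 12.1% higher and 20% lower of all genes, so the share lower was that of all genes. Without the block 0 were called in either direction. Among the AMPA receptor subunits GRIA3 had 1.5 and 1.79 UMIs per 10000 against 0.166 and 0.0410 (log2 fold change 3.84, SE 0.35). GRIA4 had 1.69 and 1.26 against 0.468 and 0.477, and GRIA2 had 1.27 and 0.388 against 0.463 and 0.138 (log2 fold changes 1.55 and 1.40). GRIA1 had 0.0608 and 0 and was lower (log2 fold change -2.40, SE 0.56). The other 2 called higher were GRIK5, with 0.327 in N350 and 0 UMIs in N354, and GRIN1, with 0.144 and 0.0485. The calls of GRIK5 and GRIN1 rested on N350, since 0 UMIs allow a level of up to 0.145 in N354. The kainate receptor subunit GRIK1 had 0 UMIs in horizontal cells of both dogs and was lower than in all 3 comparators. Over the amacrine gate none of the 15 was higher and 7 were lower, against 6.65% and 10.5% of all genes (0 without the block), and for GRIA3 and GRIA4 no difference was called (adjusted p = 0.341 and 0.974).

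Voltage-gated and related channels gave 4 higher, 3 lower and 9 not called of 16 over the remaining cells, against 12.1% higher and 20% lower of all genes, so the share lower was near that of all genes. Without the block 0 were called in either direction. KCNJ2, an inward rectifier potassium channel, had 0.289 in N350 and 1.70 in N354 against 0.00704 and 0.00235 (log2 fold change 6.63, SE 0.62), the largest difference among the 16 tested. CACNA2D1, an accessory calcium channel subunit, had 0.653 and 1.07 and was higher than in all 3 comparators. CACNA1C and HCN2 were called higher as well, at levels of at most 0.342. CACNA2D2, another accessory calcium channel subunit, was among the 3 lower genes, at 0.167 and 0.0485 against 1.80 and 0.159 in the remaining cells. Over the amacrine gate 2 of the 16 were higher and 8 lower, against 6.65% and 10.5% of all genes, while DESeq2 called 2 higher and 4 lower and the fit without the block called 0.

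Adhesion, spacing and wiring genes gave 11 higher, 4 lower and 4 not called of 19 over the remaining cells, against 12.1% higher and 20% lower of all genes, so the share lower was near that of all genes. The median log2 fold change was 1.90 against -0.33 for all genes, and without the block 1 was called higher and 0 lower. MEGF11, which keeps horizontal cells apart in their mosaic, had 1.88 and 0.970 UMIs per 10000 against 0.0478 and 0.00352 (log2 fold change 5.75, SE 0.42). Its relative MEGF10 had 0.197 and 0.0485 and was not called in any comparison. SOSTDC1, a secreted antagonist of BMP and WNT signals, had 3.97 and 4.12 and stayed at or below 0.200 in every other class (log2 fold change 5.38, SE 0.32). The protocadherin PCDH17 had 2.96 and 1.84 against 0.660 and 0.433 in the amacrine gate (2.31, SE 0.31). NCAM1, a general neural adhesion molecule, was the most abundant of the list at 12.5 and 16.9, above the amacrine gate at 7.86 and 12.6 (0.68, SE 0.22, adjusted p = 0.0327). Others called higher were LRRC4, SEMA6A, PLXNA4, CNTNAP2, PCDH9 and RET.

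NTNG1, NTNG2, LRRC4C and TEAD1 were the 4 lower genes of that list. NTNG1, a netrin-like adhesion ligand, had 1 UMI in N350 and 0 in N354, against levels of 3.99 and 6.79 in the bipolar gate. LRRC4C rested on N350, with 0.0987 against 0.308 in the remaining cells, while N354 had 0.0970 against 0.0926.

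Synaptic vesicle genes gave 7 higher, 5 lower and 6 not called of 18 over the remaining cells, against 12.1% higher and 20% lower of all genes. Over the amacrine gate 1 was higher and 8 lower, against 6.65% and 10.5% of all genes. Without the block 2 were higher and 0 lower over the remaining cells and 0 were called over the amacrine gate. SYT4, a synaptotagmin of dense-core vesicles, was the gene higher than in the amacrine gate, at 7.12 and 8.83 UMIs per 10000 against 4.0 and 3.03 (log2 fold change 1.29, SE 0.31, edgeR adjusted p = 0.00276). This call was lost without the block (adjusted p = 0.417) and with DESeq2, which called 0 genes of the list higher there. The fast calcium sensor SYT1 had 7.55 and 10.2 against 27.0 and 36.6 (log2 fold change -1.71, SE 0.22), and was not called over the remaining cells. SNAP25, a SNARE protein of transmitter release, had 9.14 and 2.76 against 35.6 and 12.1 (-1.88, SE 0.27). SYNPR, synaptoporin, had 0.296 and 0.0485 against 15.4 and 14.7 (-6.48, SE 0.52). Complexins bind the release machinery. CPLX3 had 5.16 and 4.32, above the remaining cells and below the amacrine gate at 30.6 and 23.6, and CPLX4 had 1.76 and 0.194, below the remaining cells at 19.4 and 7.67 and not apart from the amacrine gate at 1.40 and 0.333 (adjusted p = 0.586).

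**Figure D4:**
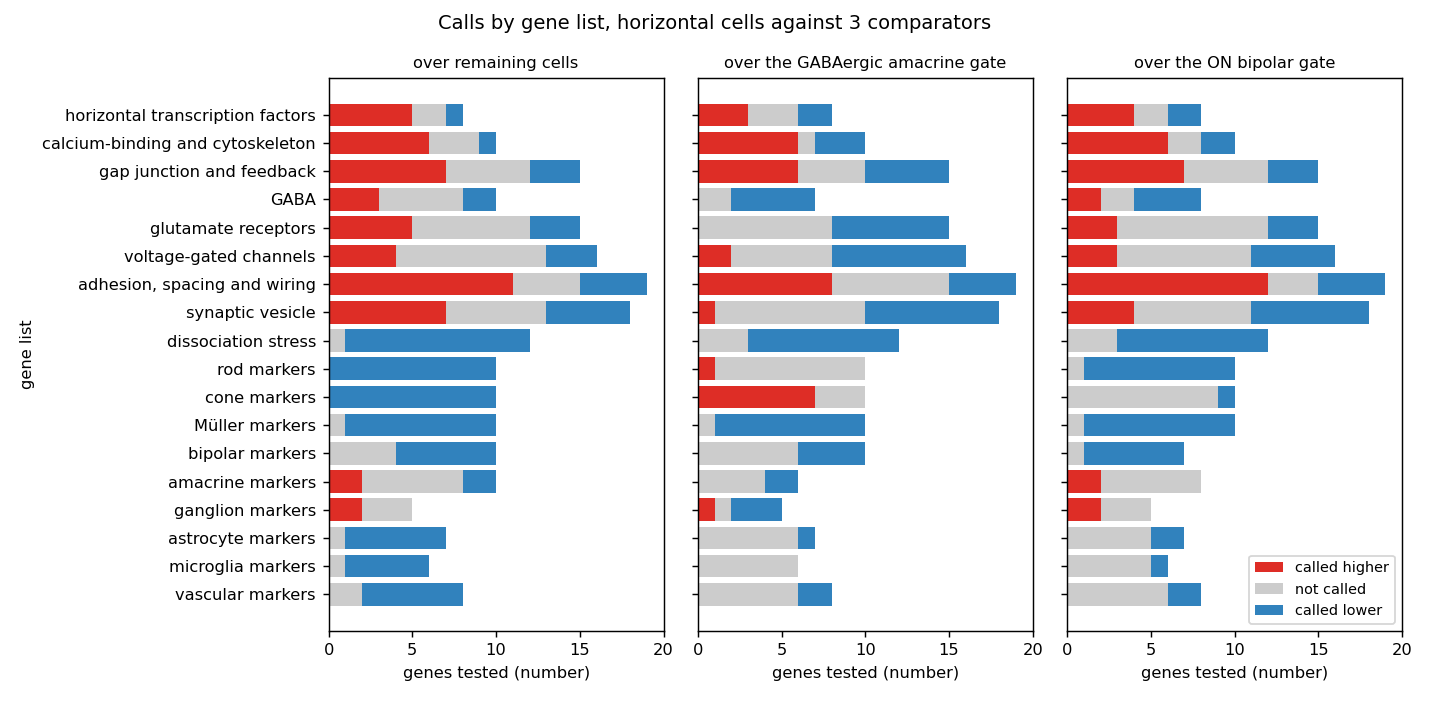
Number of genes called higher (red), not called (grey) and called lower (blue) in horizontal cells for each gene list, over the remaining cells, the GABAergic amacrine gate and the ON bipolar gate. Each bar is as long as the number of genes of the list that were tested in that comparison. Adhesion genes have 11, 8 and 12 of 19 higher in the 3 panels, against 12.1%, 6.65% and 11.2% of all genes. In each panel 4 are lower, against 20%, 10.5% and 13.1% of all genes. Without the block 1, 0 and 2 adhesion genes were called higher. Dissociation stress genes have 0 higher in each panel.

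Against the amacrine gate, the comparator nearest in depth, the 10 most higher genes included POSTN, GJA9, THSD7B, PRRX1, IGFBP2, GJA10, RFX6, SHISAL2B and PPP1R1C. POSTN had 623 and 88 UMIs in horizontal cells and 0 in the amacrine gate of both dogs, at least 220-fold higher in N350 and at least 42.7-fold in N354. THSD7B had 407 and 40 UMIs against 0, at least 144-fold and 19.4-fold higher. IGFBP2 had 3066 UMIs in N350 against 1. In the other direction, AVP, which encodes vasopressin, TNC, ALDH1A1, PTPRK, GABRG1, GPRC5B and RELN were among the 8 most lower, all with 0 UMIs in horizontal cells. AVP had 3.16 and 2.80 UMIs per 10000 in the amacrine gate, and the matrix protein tenascin-C, encoded by TNC, had 1.28 and 4.77. None of the 10 and 8 genes was called without the block (adjusted p from 0.0727 to 0.257).

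Against the ON bipolar gate the 10 most higher were POSTN, DNAH14, BTBD17, PRPS2, AJAP1, GJA10, KCNJ2, SLC22A3, SGCD and RFX6, each with 0 UMIs in that gate in both dogs. DNAH14, a dynein heavy chain, had 1.73 and 3.06 UMIs per 10000 and was at least 51.2-fold and 66.3-fold higher. The 8 most lower, all at 0 UMIs in horizontal cells, included GPR179, an ON bipolar scaffold protein, at 1.33 and 1.41 in the gate, and the cadherin CDH12 at 0.993 and 1.23. Without the block 4 of the 10 and 5 of the 8 were called.

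Genes of other retinal cell types were read in full to see what else the group held. Of the 12 rod markers 10 could be tested, and those 10 were lower than in the remaining cells, against 20% of all genes (7 without the block). The summed level was 23.5 UMIs per 10000 over the 12 genes in N350 and 16.3 over the 10 that N354 names, against 232 and 342 in the remaining cells. The amacrine gate had 16.8 and 14.0, and over it 1 rod marker (ROM1) was called higher. That call was lost with DESeq2, with at least 3 markers of the rule and without the block (adjusted p = 0.554). GNGT1, a transducin subunit, had 3.82 in N350 and 6.69 in N354, where it led the list. These levels were uneven over the cells. In N354 GNGT1 had 88.0 in the 5 cells with 2 markers of the rule, 0.747 in the 6 with 3 markers and 3.29 in the 10 with 4 markers. In N350 it had 20 in the 33 cells with 2 markers, 5.59 in the 46 with 3 and 1.38 in the 56 with 4, the same order as SAG above. Pooled, the cells with 2 markers thus held GNGT1 and SAG at a higher level than the rest in both dogs. In N354 all the SAG of these 5 cells came from 1 cell of 5105 UMIs. The part of these transcripts in the results was not tested.

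Cone markers set N350 apart. The 10 genes summed to 7.59 in its horizontal cells, against 0.395 in its amacrine gate and 36.9 in its remaining cells, and 7 of the 10 were higher than in the amacrine gate, against 6.65% of all genes (0 without the block). PDE6H, the cone phosphodiesterase inhibitor, gave 5.38 of the sum and was detected in 38 of the 135 cells, or 28.1%, against 27.8% of the shallower remaining cells. After thinning the shares were 13% and 18.4%. In N354 the sum was 0.194, and 9 of the 10 markers were at 0. With at least 3 markers of the rule the number higher than in the amacrine gate was 3, and DESeq2 called 2.

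Müller glia markers summed to 3.62 and 2.96, against 25.0 and 72.2 in the amacrine gate and 99.9 and 119 in the remaining cells. GLUL, glutamine synthetase, had 1.03 and 0.727 against 38.5 and 52.4 in the remaining cells (log2 fold change -5.69, SE 0.42). DBI led the list, and 9 of the 10 Müller markers were lower in each of the 3 comparisons, against 20%, 10.5% and 13.1% of all genes over the remaining cells, the amacrine gate and the bipolar gate. Without the block 2, 0 and 0 were called lower. Bipolar markers summed to 0.410 and 0.145, astrocyte markers to 1.09 and 1.31, nearly all of it WFDC2, microglia markers to 0.0152 and 0, and vascular markers to 0.0380 and 0.0970. Amacrine markers summed to 2.62 and 2.33 against 40.9 in the amacrine gate of each dog, led by CARTPT in N350 and GAD1 in N354. Part of this contrast was set by the choice of cells, since SLC6A9 was at 0 by the rule, genes of the list chose the amacrine gate, and 6 of the 12 could be tested over it. Ganglion cell markers summed to 5.93 and 8.34 against 0.959 and 0.349 in the remaining cells and 12.2 and 17.0 in the amacrine gate. Over the remaining cells 2 of the 5 tested, STMN2 and NEFH, were called higher, against 12.1% of all genes (1 without the block). Over the amacrine gate 1 was higher and 3 were lower, against 6.65% and 10.5% of all genes (0 without the block). RBPMS and SLC17A6 were at 0 by the rule, and POU4F2 and POU4F3, defining factors of ganglion cells, were at 0 without it.

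Of the immediate early and heat shock genes, which rise when tissue is dissociated, most were low in horizontal cells, while the heat shock gene HSPA8 was not. Of 12 tested, 11 were lower than in the remaining cells and 9 were lower than in each of the other comparators, against 20%, 10.5% and 13.1% of all genes. The median log2 fold change over the remaining cells was -4.44, and none was called without the block. FOS had 3.20 UMIs per 10000 in N350 and 0.388 in N354, against 57.0 and 14.9 in the remaining cells, 19.4 and 10.9 in the amacrine gate and 18.6 and 1.87 in the bipolar gate (log2 fold changes -4.56, -3.40 and -2.30). JUNB, EGR1, ATF3, ZFP36 and NR4A1 were lower over all 3 comparators, and the chaperone HSPA8, at 2.16 and 10.8 against 2.38 and 11.2 in the remaining cells, was not called in any. The median mitochondrial share was 8.55% and 11.8% in horizontal cells, 5.42% and 8.83% in the amacrine gate, 6.15% and 7.46% in the remaining cells and 12.7% and 17.6% in the bipolar gate, and its part in this difference was not tested.

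**Figure D5:**
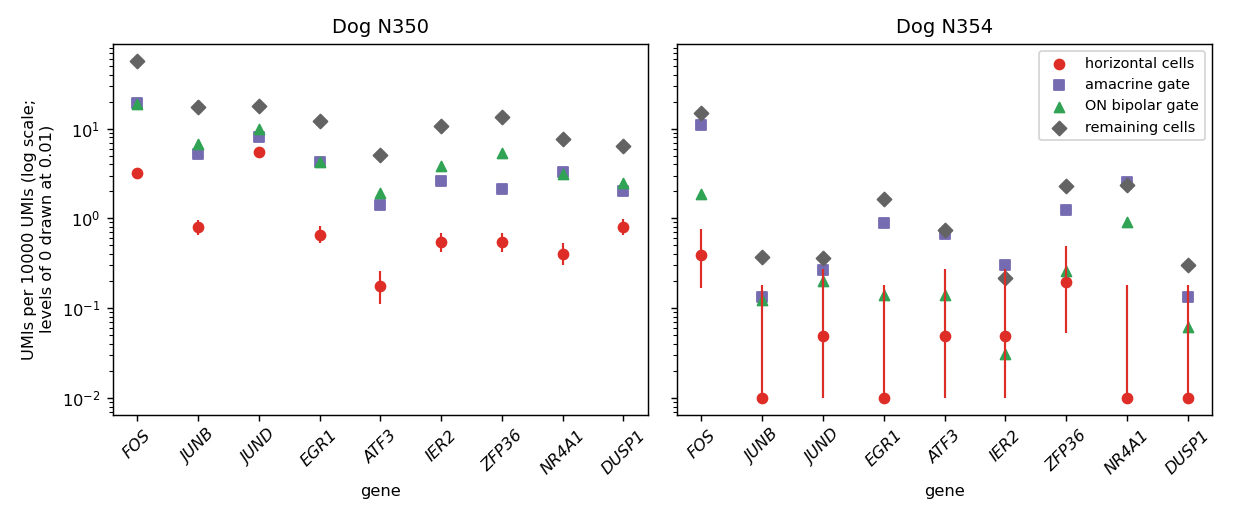
Levels of 9 immediate early and stress response genes in UMIs per 10000 UMIs (log scale, 0 drawn at 0.01) in the 4 cell classes, N350 on the left and N354 on the right. Vertical lines are exact Poisson 95% intervals of the horizontal cells. In N350 every red point lies below the other 3 classes, and in N354 the horizontal levels rest on few UMIs and their intervals are wide.

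Abundant named transcripts of horizontal cells were ranked by the mean of the 2 dogs over shared names, mitochondrial and ribosomal protein genes left out. They were led by the glycolytic enzymes ENO1 at 84.1 and 103 UMIs per 10000, GAPDH at 94.2 and 89.9, and ALDOC at 66.1 and 81.2. CALB1 followed, then the microtubule regulator STMN1 at 64.0 and 76.6, CA2, SEPTIN7 at 41.3 and 53.2, CFL1 and GNAS. Next came IFT27 at 1.07 and 79.0, whose value in N354 is described below. The order within a single dog differs. PVALB, which only N350 names, had 61.2 there, above CA2 in that dog. These are 3′ counts, not scaled by transcript length. In the remaining cells ENO1 stood at 31.9 and 29.2, STMN1 at 8.23 and 4.91 and SEPTIN7 at 3.15 and 2.91. Of the pair of genes at the centre of the study, SPATA7, a protein of the photoreceptor connecting cilium, had 0.342 and 0.630 in horizontal cells against 0.424 and 0.719 in the remaining cells and was not called (adjusted p = 0.375). PTPN21, a tyrosine phosphatase, had 0.243 in N350 and 0 UMIs in N354, against 0.482 and 0.484, and was called lower (log2 fold change -1.53, SE 0.42, adjusted p = 0.00519). Without the block it was not called (adjusted p = 0.44).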

How the data were processed

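The authors dissociated neuroretinal punches, prepared 10x 3′ v3.1 libraries and counted reads with Cell Ranger (6.0.2 in the file headers), and they deposited raw UMI counts per gene and barcode for each dog, which are the unit used here. The study states a limit of 5% mitochondrial content and doublet removal, neither of which was applied here. Cells with 200 or more genes were kept. Levels are UMIs of a gene per 10000 UMIs of all genes, summed over cells, with exact Poisson 95% intervals. UMIs summed per dog and class were tested with edgeR 4.0.16 (quasi-likelihood, TMM, two-sided, Benjamini-Hochberg, dog as block) over shared names with 10 or more UMIs in the 8 sums. The pipeline was tested on simulated data. The simulated counts held no difference between dogs or annotations, so that test cannot judge the dog block. Deviations of sums of the same dog correlated at 0.545 to 0.76 over 12346 genes. The 8 rule genes, and the gate genes of a comparator, were left out of the counts. Named genes were the listed genes, the most changed named genes with adjusted p under 0.05, the same direction in both dogs and 10 or more UMIs in the higher class of each dog, the 10 most abundant, and SPATA7 and PTPN21. Members and lists were chosen with earlier results of these data known. Doublets were removed only in an alternative (the highest 4% of Scrublet scores, since the caller's own threshold marked 0 and 2 cells). Other alternatives were DESeq2 1.42.0, library size scaling, no low-count filter, stricter marker, depth and mitochondrial limits, and each dog alone. A ganglion-like gate of 9 and 0 cells was not fitted. Gene symbols were matched to RefSeq names of UU_Cfam_GSD_1.0, 33363 of 34981 names in N350 and 15357 of 19930 in N354. Results on some listed genes are not reported here.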

Additional observations from a re-analysis of the deposited data

Results flagged for a closer look

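Some genes were named in the annotation of a single dog, so that no comparison above could use them. They are given because the horizontal cells of that dog held 100 or more UMIs of the gene at a level at least 8-fold that of its remaining cells. In N350 PVALB, the calcium buffer parvalbumin, had a level of 61.2 UMIs per 10000 in horizontal cells, 1.25 in remaining cells and 15.2 in the amacrine gate, and was detected in 115 of the 135 horizontal cells and 9.28% of the remaining cells. The dopamine receptor gene DRD1 had 3.66 against 0.0850 in remaining cells, and the sulfotransferase gene HS3ST6 had 2.12 against 0.0297. The kinase gene WNK4, which regulates cation-chloride cotransporters, had 2.35 against 0.0825. GNG7, a G protein subunit, had 5.51 against 0.424, and PHGDH, the entry enzyme of serine synthesis, had 8.38 against 0.754. The tubulin gene TUBB2A had 14.0 against 1.41. Levels of C10H12orf75, ZCCHC18 and SAMD5 were 2.52, 1.44 and 0.843, each more than 8-fold above the remaining cells. In N354 PHYH, a peroxisomal enzyme, had 7.27 against 0.229 and was detected in 16 of the 21 horizontal cells and 4.17% of the remaining cells. Each value comes from 1 dog and was not tested.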

How the results depend on the processing

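The dog as a block decided most calls. With no replicate block 193, 0 and 206 genes were called over the remaining cells, the amacrine gate and the bipolar gate, against 3971, 2117 and 2997, and of the called genes named in the lists and rankings 130 of 159, 121 of 121 and 101 of 126 lost their call. DESeq2 called 1401 genes over the amacrine gate, and 28, 27 and 25 named genes lost their call by it. Library size scaling, Scrublet removal, at least 3 markers, cells with 1000 or more UMIs and no low-count filter kept the number of genes called in each comparison within 1.5 times, and at most 6 named genes per comparison lost a call. A fit of 2 classes only, horizontal cells against all other cells, called 3700. Counts within lists moved more. With at least 3 markers, cone markers higher than the amacrine gate went from 7 to 3, cone markers lower than the bipolar gate from 1 to 7, and glutamate receptors and channels lower than the remaining cells from 3 to 5 each. With Scrublet removal, rod markers lower than the bipolar gate went from 9 to 5. Library size scaling moved the median log2 fold change over the remaining cells from -0.33 to -0.18. Leaving out either dog leaves no residual degrees of freedom, so per-dog log2 ratios have no test. N354 by itself gave a clear ratio for 130, 100 and 102 of the called named genes. For 83, 71 and 69 of these it lay further from the fitted value than the standard deviation of the 2 per-dog ratios. With N350 by itself 57 of 159, 58 of 121 and 62 of 126 moved so or had no clear ratio in N354 to compare. Between the dogs these ratios changed direction for LAMP5 over the remaining cells (-6.91 to 2.02) and for LRRC4C over the remaining cells (-1.64 to 0.07) and the bipolar gate (-2.16 to 0.66), positive in each case without replicate 1 (N350). The cause of these changes was not tested. The share of horizontal cells in N350 was 1.15% with at least 3 markers, 2.14% among cells with 1000 or more UMIs and 2.03% with no gene required at 0. With less than 5% of UMIs on names starting with MT, 0 horizontal cells (0%) were left in N354, and no fit was possible, while N350 has 1 such name and lost none. An alternative chosen after seeing the data, at most 5% on 13 mitochondrial genes, left 16 cells (0.493%) in N350 and 0 (0%) in N354. A mean over cells in place of pooled UMIs put 80 of 116 levels outside their counting interval and moved 18 by more than 1.5 times. The 206205 UMIs of horizontal cells in N354 limit every level below about 0.145 there.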

Other observations

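Between the dogs, the horizontal cells were compared over the 2137 shared names with 100 or more UMIs in either dog. The levels of 1452 of them (67.9%) were within 2-fold of each other. A further 149 genes were more than 8-fold higher in N350 and 11 more than 8-fold higher in N354. These 2 counts cannot be set against each other. The horizontal cells held 1316803 UMIs in N350 and 206205 in N354, so 100 UMIs is a lower level in N350 and admits more genes through that dog. Some of the 149, such as BEX4 at 0.0485, also stood in N354 under 0.145, the level that 0 UMIs allow there. Of the 149 genes 94 were also more than 8-fold higher in N350 in the remaining cells, and 6 were within 2-fold there. BEX4 was 148-fold higher in N350 in horizontal cells and 106-fold higher in the amacrine gate, and ATG101 was 14.5-fold higher in horizontal cells and 14.7-fold higher in the remaining cells. Among the 6, the cone gene PDE6H was 27.7-fold higher in N350 in horizontal cells and 0.801-fold in the remaining cells, and SFRP2, a secreted WNT antagonist, 23.1-fold and 1.08-fold. What part the different annotations had in these differences was not tested.

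IFT27 and CALB2 differed more between the dogs in horizontal cells than in the other classes. IFT27, a gene of intraflagellar transport in cilia, had 1.07 UMIs per 10000 in the horizontal cells of N350 and 79.0 in those of N354, where it was detected in 19 of 21 horizontal cells. After thinning to 1000 UMIs it was detected in 94.2% of horizontal cells and 7.29% of remaining cells of N354. In the amacrine gate it stood at 1.48 and 12.7, in the bipolar gate at 0.406 and 0.384, and in the remaining cells at 0.583 and 0.872. In the RefSeq table of UU_Cfam_GSD_1.0 IFT27 is the gene next to PVALB, which the features of N354 do not name and which had 61.2 in the horizontal cells of N350. Whether reads of PVALB were counted as IFT27 in N354 was not tested, so 79.0 may not be the level of IFT27 alone. CALB2 differed 0.0849-fold (N350 over N354) in horizontal cells, 0.262-fold in the amacrine gate and 0.515-fold in the remaining cells. ONECUT2 was 10.6-fold higher in N350 in horizontal cells, and 5.24-fold and 14.8-fold higher in the bipolar gate and the remaining cells, so its difference was larger in the remaining cells. None of these differences between single dogs was tested.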
